A study of Mus musculus with 6 samples.

Results

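The genes described are the members of the 4 mouse Hox clusters, taken as every entry of the expression table whose symbol is Hoxa, Hoxb, Hoxc or Hoxd followed by a paralogue number. The rule finds 39 genes among 21639 entries, and it uses the symbol alone. On mm9, the build of the deposited table, 11 members lie in cluster A (chr6:52105366-52210874, minus strand), 10 in cluster B (chr11:96055675-96229567, plus strand), 9 in cluster C (chr15:102751562-102867283, plus strand) and 9 in cluster D (chr2:74506367-74603199, plus strand).

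The study asked what the acidic patch of H2A.Z, a variant of histone H2A, does in mouse embryonic stem cells (ESCs). RNA-Seq was performed on 3 lines at 2 time points, with 1 library for each of the 6 conditions. D0 samples were ESCs, grown on irradiated mouse embryonic fibroblasts in medium with leukemia inhibitory factor (LIF) and plated without these feeders for the final passage. D3 samples were embryoid bodies (EBs), aggregates in which ESCs begin to differentiate, collected at day 3 in medium lacking LIF.

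The cells are labelled V6.5, a cross of 129SvJae and C57BL/6, and the protocols place the transgenes in KH2 ESCs. H2A.Z WT cells carried wild-type H2A.Z fused to YFP, H2A.Z AP3 cells carried the same fusion with 3 acidic patch residues replaced by those of H2A, and both transgenes were lentiviral, driven by a CMV promoter under an inducible rtTA system with 1 µg/ml doxycycline and sorted for YFP. Hairpins against the end of the endogenous H2A.Z transcript, which the transgenes lack, were introduced into the transgenic lines. The remaining line is labelled H2A.Z KD, for depletion of endogenous H2A.Z, and its labels name no transgene. How many integrations or cultures stand behind a library is not given in the sources used here.

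Hox genes encode homeodomain transcription factors that give cells their position along the body axis. Genes with low paralogue numbers sit at the 3′ end of each cluster and act in anterior regions, and genes with high numbers act in posterior regions and limbs. In ESCs the clusters are held nearly silent under Polycomb repression, and their opening during later development proceeds from the 3′ end.

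H2afz, the gene of H2A.Z, was measured first, because it is the gene the hairpins target. At D0 it stood at 279 RPKM (reads scaled to transcript length and to the mapped reads of the library) in WT, 343 RPKM in the library labelled KD and 304 RPKM in AP3. At D3 the values were 258, 236 and 394 RPKM in the same order. The library labelled KD was thus at 1.23 times WT at D0 and at 0.916 times WT at D3. The table gives 1 value per gene, so endogenous and transgene transcripts cannot be told apart, and the library is called the library labelled KD throughout. H2afv, the gene of the second H2A.Z isoform, lay between 52.2 and 63.3 RPKM in all 6 libraries.

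The deposited values carry no read counts. Depth was estimated from the steps between the lowest values and came to 17.6 M reads in WT, 18.6 M in the library labelled KD and 28.1 M in AP3 at D0, and to 19.8, 23.6 and 20.2 M reads at D3. These figures come from a joint estimate over the 6 libraries. For AP3 at D0 it gave 1.59 times the WT library of the same day, whereas the tallest peak of low values in that library alone gave 13 M reads. At D0 the genes used had 3032 values above 0 in AP3, fewer than the 3053 in WT and 3070 in the library labelled KD. At 13 M reads 125 of those in AP3 would be worth under 0.75 of a read, against 45 at 28.1 M. At the joint estimate, which is used throughout, the number was 45 to 66 in any library. Counts of reads and intervals for AP3 ESCs depend on this choice. With 1 library per condition the difference between a given pair of libraries has no test. An additive fit of line and day over the 6 libraries, chosen after seeing the data, leaves 2 residual degrees of freedom. It tests day with the 3 lines as replicates and a line with the 2 days as replicates, by limma on log2(RPKM + 0.1). A gene was called higher or lower when its ratio passed 1.5-fold on log2(RPKM + 0.001), and intervals given below cover counting error at the estimated depth only, at the 95% level. The libraries carry no molecular identifiers, so PCR copies of 1 molecule are counted as separate reads. Differences between cultures of the same line cannot be told apart from differences between lines.

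The homeobox is the stretch that defines the family, and it is also where members resemble each other most. The 30 bases below encode the recognition helix, the part of the homeodomain that enters the major groove of DNA, for 8 of the members on which the results turn. They were read on the coding strand from GENCODE transcripts of NCBIM37 (mm9), and capitals mark bases that differ from Hoxb9, the most abundant member in ESCs.
Hoxb9, chr11:96136108-96136137, plus strand: aaaatctggtttcagaaccggcggatgaaa
Hoxb8, chr11:96145623-96145652, plus strand: aaaatctggttCcagaaTcggAgAatgaaG
Hoxb4, chr11:96181505-96181534, plus strand: aaGatctggttCcagaaTcggcgCatgaaG
Hoxa5, chr6:52152646-52152675, minus strand: aaaatctggttCcaAaacAggAggatgaaG
Hoxa10, chr6:52182568-52182597, minus strand: aaaatctggtttcagaaTcgCAggatgaaa
Hoxa11, chr6:52193416-52193445, minus strand: aaaatctggtttcagaacAgAAgAatgaaG
Hoxc13, chr15:102757776-102757805, plus strand: aCCatctggttCcagaaTcgAcgCGtgaaa
Hoxd8, chr2:74544717-74544746, plus strand: aaaatctggttCcagaacAggAgAatgaaa

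Over all 39 members this stretch differed from that of Hoxb9 at 2 to 8 of 30 bases, and 5 members share it base for base with another member. Over whole transcripts such likeness was rare, and where in a transcript the similar windows lie was not recorded. When each member's transcript was cut into windows of 36 bases, 29 members had at least 1 window within 2 mismatches of another member's transcript, but the median share of such windows was 0.626% and the highest was 10.3%, in Hoxa3. The Hoxa3 transcript scanned was 1332 bases long and all coding, against 2542 bases used for its reads. Its share could be lower over the longer model. Hoxa10 and Hoxa11 had 3 such windows each, of 2528 and 2654. The read length is not given in the sources used here, and reads were allowed 2 mismatches and up to 20 locations, so Hoxa3, which resembles Hoxb3 over 103 windows and Hoxd3 over 101, could share some reads with them. Hoxa3, Hoxa4, Hoxa5 and Hoxa6 are listed under a single locus, as are Hoxd3 and Hoxd4, and how reads in overlapping models were divided among these genes is not given.

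Hox transcripts were scarce in every library. No member reached 1 RPKM in all 6 libraries, and 7 reached it in any, among them Hoxa3, Hoxa5, Hoxb4, Hoxb8, Hoxb9 and Hoxc13. The median member stood at 0.137 RPKM in WT ESCs, 0.132 RPKM in the library labelled KD and 0.299 RPKM in AP3 ESCs, and at 0.122, 0.084 and 0.136 RPKM in the EBs. In WT ESCs 32 members were above 0, and in AP3 ESCs 37. Of all 21639 entries 17148 were above 0 in WT ESCs and 16997 in AP3 ESCs. Across all libraries 23 members were above 0 in each of the 6, and none was listed at 0 in every library. The least detected members were Hoxc5 and Hoxc11, listed at 0 in 4 libraries each and at most at 0.078 and 0.0398 RPKM. In a gene of 2 kb, 1 read was worth 0.0284 RPKM in WT ESCs, so most members rest on a handful of reads.

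**Figure D1:**
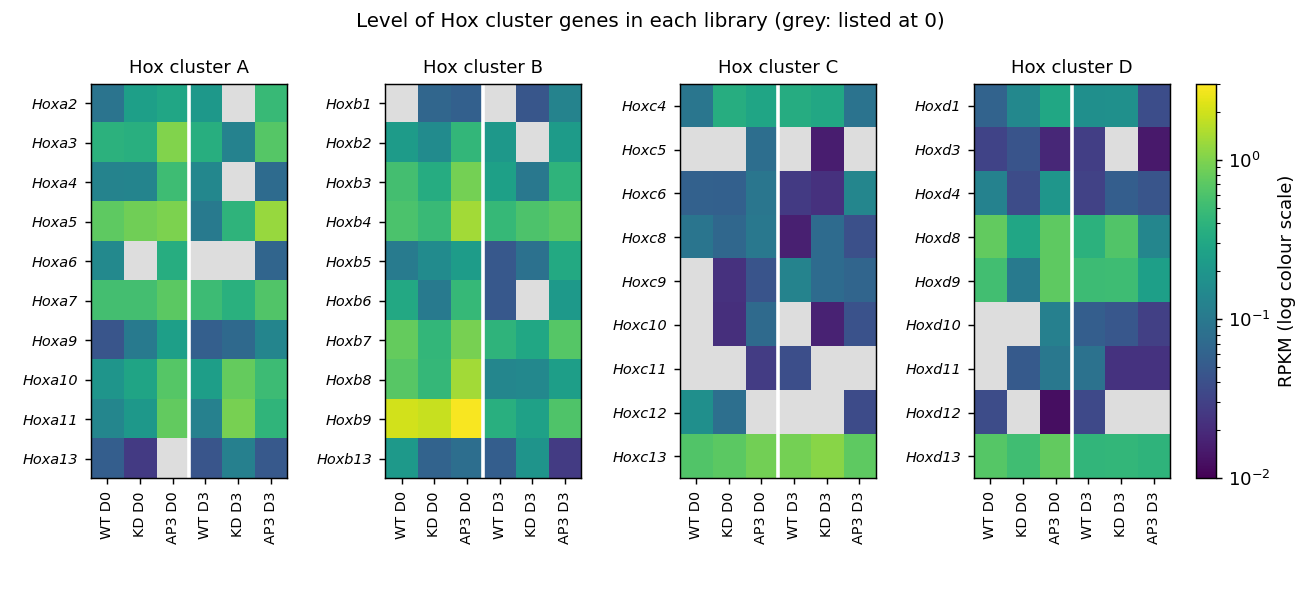
RPKM of 38 Hox genes (rows, in order of paralogue number within each cluster) in each of the 6 libraries (columns), on a log colour scale with grey for values listed at 0. Hoxb9 in AP3 ESCs is the brightest cell at 2.85 RPKM, the AP3 D0 column is the brightest of clusters A and B, and most of cluster C is dark or grey apart from Hoxc13.

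The summed level of the 39 genes was 12.7 RPKM in WT ESCs, 10.8 RPKM in the library labelled KD and 20.8 RPKM in AP3 ESCs. In EBs the sums were 7.74, 8.80 and 11.3 RPKM in the same order. These sums rest on an estimated 471, 435 and 1264 reads at D0 and on 316, 451 and 477 reads at D3. The AP3 library was therefore highest on both days, 1.64 times WT at D0 and 1.46 times WT at D3, and the depth-scaled ratios of summed reads had counting intervals of 1.52 to 1.88 and 1.28 to 1.71. The library labelled KD stood at 0.850 times WT at D0 and 1.14 times WT at D3.

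The first comparison was AP3 with WT in ESCs. Of 39 members 23 were over 1.5-fold higher in AP3 and 5 were over 1.5-fold lower, where 11.1% of all entries were higher and 13.9% lower. Low values scatter more, so the same shares were taken over low entries. These have a mean over the 6 libraries above 0 and under 2 RPKM, as all members have. Among them 22.0% were higher and 31.8% lower. The median log2 change of the members was 0.92, and that of all entries was 0.00. The members' median was 0.53 with 0.1 RPKM added and 0.16 with 1 RPKM added. Any difference at all pointed to AP3 in 33 members, and 31 members were above both WT and the library labelled KD. How often other entries do the same was not counted, so these numbers have no background share. Of the 23 calls 7 were of members listed at 0 in WT, and 9 members had a counting interval wholly above WT (Hoxa3, Hoxa4, Hoxa9, Hoxa10, Hoxa11, Hoxb4, Hoxb8, Hoxb9 and Hoxd1) while none had one wholly below. With the depth of each library taken from its own peak, an alternative chosen after seeing the data, the number above WT was 7, without Hoxa9 and Hoxd1. Over all entries with a transcript length such intervals lay above WT in 19.0% and below in 19.2%, and among low entries in 8.74% and 11.5%.

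Of the 8 anterior genes, paralogues 1 to 3, 6 were over 1.5-fold higher in AP3 ESCs and 1 was lower. Hoxa3, which acts in the pharyngeal arches, was at 0.387 RPKM in WT, 0.369 RPKM in the library labelled KD and 1.01 RPKM in AP3, and its ratio of 2.62 had an interval of 1.55 to 4.82. Hoxa2, Hoxb2 and Hoxb3 were also over 1.5-fold higher in AP3, at 0.293, 0.432 and 0.904 RPKM against 0.0905, 0.228 and 0.549 RPKM in WT. Hoxb1 was listed at 0 in WT and at 0.0573 RPKM in AP3. Hoxd3, at 0.0315 and 0.0189 RPKM, was the single anterior gene called lower.

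Of the 15 central genes, paralogues 4 to 8, 9 were over 1.5-fold higher in AP3 ESCs and none was lower. Hoxb4, known for expanding blood stem cells, was at 0.595 RPKM in WT, 0.473 RPKM in the library labelled KD and 1.35 RPKM in AP3, with a ratio of AP3 to WT of 2.28 (1.46 to 3.599). Hoxb8, known from work on myeloid progenitors and the trunk skeleton, was at 0.677, 0.449 and 1.37 RPKM, and its ratio was 2.03 (1.34 to 3.08). Both were above the other D0 libraries by more than counting error. Hoxa4 was at 0.129, 0.132 and 0.509 RPKM. Hoxa5, which patterns the cervical and thoracic region and the lung, was at 0.725, 0.867 and 0.968 RPKM, within 1.5-fold in every pair. Hoxd8 was at 0.760 RPKM in WT and 0.726 RPKM in AP3, but at 0.290 RPKM in the library labelled KD.

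Of the 16 posterior genes, paralogues 9 to 13, 8 were over 1.5-fold higher in AP3 ESCs and 4 were lower. They held both the highest member and the largest ratios. Hoxb9, which specifies thoracic identity, was the most abundant member in all 3 ESC libraries, at 2.02 RPKM in WT, 1.86 RPKM in the library labelled KD and 2.85 RPKM in AP3. Its ratio of AP3 to WT was 1.41 (1.10 to 1.82), under the 1.5-fold limit. Hoxa11, a regulator of the forearm, uterus and kidney, was at 0.137, 0.207 and 0.767 RPKM, the largest increase of any member when 0.1 RPKM was added to damp low values, with a ratio of 5.61 (2.63 to 17.2) from an estimated 6 reads in WT and 58 in AP3. Hoxa10, its neighbour and also a regulator of uterus and limb, was at 0.195, 0.278 and 0.662 RPKM, a ratio of 3.40 (1.63 to 7.77). The 3 largest decreases were all of posterior genes with few reads. Hoxc12 was at 0.169 RPKM in WT and listed at 0 in AP3, Hoxb13 at 0.216 and 0.0780 RPKM, and Hoxa13 at 0.0548 RPKM in WT and listed at 0 in AP3. Each of these rests on at most 5 estimated reads in either library.

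Hoxa11 shares its locus with the antisense transcript Hoxa11as, which stood at 0.222, 0.0806 and 0.684 RPKM at D0 and 0.332, 0.539 and 0.522 RPKM at D3 in the order WT, KD, AP3. Strand is not stated for these counts, so reads of the 2 transcripts cannot be told apart where their exons overlap.

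**Figure D2:**
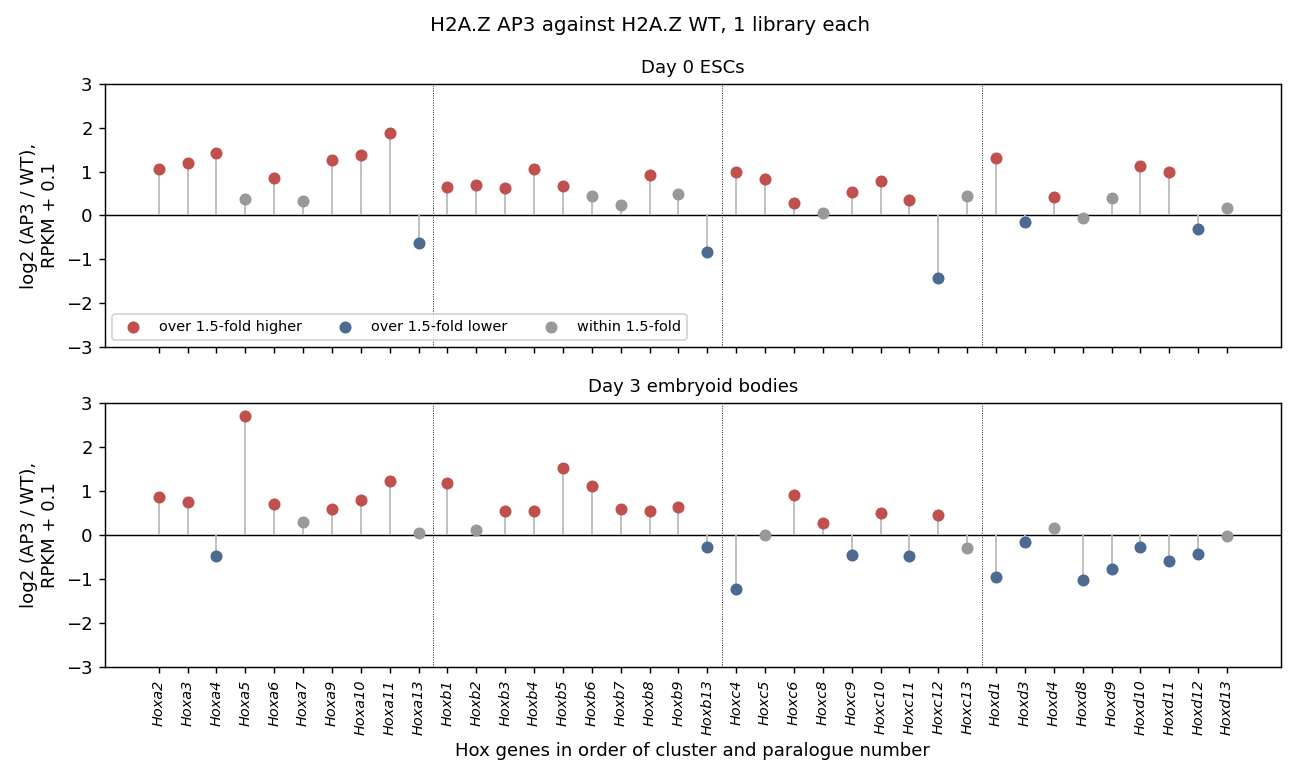
Log2 ratio of AP3 to WT for 38 Hox genes after adding 0.1 RPKM, with ESCs at the top and EBs at the bottom. Points are coloured by whether the gene passed 1.5-fold with 0.001 RPKM added, and dotted lines separate clusters A to D. In ESCs 23 genes are called higher across all clusters, and in EBs the genes called higher lie in clusters A to C, while cluster D holds 7 genes called lower.

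At D3 the AP3 and WT libraries again differed in both directions, but by cluster. Of 39 members 20 were over 1.5-fold higher in AP3 EBs and 12 were lower, where 10.4% and 11.7% of all entries and 23.5% and 26.0% of low entries were. With 0.1 RPKM added 13 were higher and 5 lower, where 6.05% and 7.38% of all entries were. The median log2 change was 0.62. In cluster A 8 of 11 genes were higher and 1 lower, in cluster B 8 of 10 were higher and 1 lower, in cluster C 4 of 9 were higher and 3 lower, and in cluster D none was higher and 7 of 9 were lower. The 4 genes higher in cluster C, Hoxc6, Hoxc8, Hoxc10 and Hoxc12, rest on at most 4 estimated reads in AP3 and 1 in WT, and of them only Hoxc6 passed with 0.1 RPKM added. Of the 7 genes lower in cluster D, Hoxd3, Hoxd10, Hoxd11 and Hoxd12 rest on at most 2 estimated reads in AP3 or WT. Hoxd3, Hoxd10 and Hoxd12 did not pass with 0.1 RPKM added, and none of the 7 had an interval wholly below WT. Cluster sums in AP3 and WT EBs were 5.61 and 2.55 RPKM for A, 3.58 and 1.99 RPKM for B, 1.14 and 1.47 RPKM for C, and 0.947 and 1.73 RPKM for D. The ratio of summed reads was 2.25 (1.78 to 2.87) in A, 1.79 (1.36 to 2.38) in B, 0.765 (0.518 to 1.13) in C and 0.605 (0.402 to 0.902) in D. At D0 the 4 cluster sums had all been higher in AP3, by 1.90, 1.58, 1.52 and 1.34 times. The difference between the days was not tested, since it takes all the degrees of freedom that 1 library per line and day leaves.

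Hoxa5 led the increases in EBs. It was at 0.104 RPKM in WT, 0.405 RPKM in the library labelled KD and 1.24 RPKM in AP3, and the ratio of AP3 to WT was 11.9 (4.21 to 44.0) from an estimated 4 and 47 reads. The WT library was the low one here: Hoxa5 fell to 0.143 times its ESC level in WT, to 0.467 times in the library labelled KD, and was 1.28 times its ESC level in AP3. Hoxa11 was at 0.122, 0.936 and 0.418 RPKM and Hoxa10 at 0.245, 0.778 and 0.498 RPKM, and for both the library labelled KD was highest, AP3 intermediate and WT lowest. Hoxb5 was at 0.0484, 0.0840 and 0.322 RPKM. Hoxb4 was at 0.461, 0.614 and 0.709 RPKM, and its ratio of AP3 to WT of 1.54 had an interval of 0.912 to 2.78. Hoxb9 was at 0.367, 0.261 and 0.624 RPKM, and its ratio of 1.70 had an interval of 0.907 to 3.08.

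The genes lower in AP3 EBs had few reads. Hoxd8 was at 0.389 RPKM in WT, 0.641 RPKM in the library labelled KD and 0.137 RPKM in AP3, a ratio of AP3 to WT of 0.352 (0.0830 to 1.202). Hoxd9 was at 0.505, 0.507 and 0.250 RPKM, a ratio of 0.496 (0.223 to 1.11). Hoxc4 was at 0.343, 0.309 and 0.0878 RPKM, a ratio of 0.256 (0.0720 to 0.975), and Hoxd1 at 0.172, 0.176 and 0.0387 RPKM. In all 4 AP3 was the lowest EB library, and of these only the interval of Hoxc4 lay wholly below WT, where 9.34% of low entries and 17.2% of all entries with a length did. Hoxd13, a regulator of digits and the most posterior gene of its cluster, did not follow them, at 0.423, 0.432 and 0.409 RPKM. Intervals lay wholly above WT for 6 of 39 members, among them Hoxa3, Hoxa5, Hoxa10, Hoxa11 and Hoxb5, against 6.23% of low entries and 16.4% of all entries with a length.

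**Figure D3:**
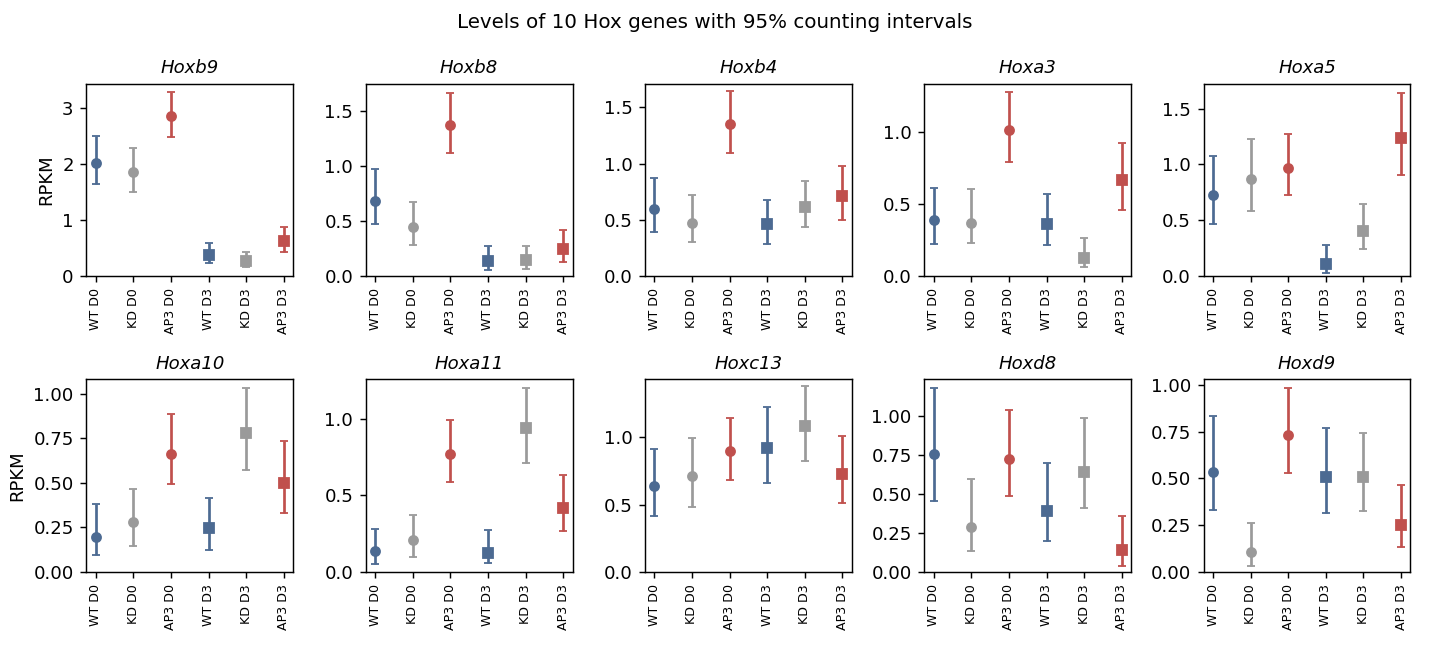
RPKM of 10 Hox genes in each library, with circles for ESCs, squares for EBs and bars for the 95% counting interval at the estimated depth. AP3 ESCs are the highest D0 library for 9 of these genes, the exception being Hoxd8, and the KD-labelled EBs are the highest library for Hoxa10, Hoxa11 and Hoxc13.

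Over both days 13 members were over 1.5-fold higher in AP3 than in WT each time: Hoxa2, Hoxa3, Hoxa6, Hoxa9, Hoxa10, Hoxa11, Hoxb1, Hoxb3, Hoxb4, Hoxb5, Hoxb8, Hoxc6 and Hoxc10. This was so for 2.64% of all entries and 6.33% of low entries. Another 7 were higher at D0 and lower at D3, as were 2.28% of all and 5.49% of low entries, and of these Hoxa4, Hoxc4 and Hoxd1 reached 10 estimated reads in any library. In the additive fit no member passed an adjusted p of 0.05 between AP3 and WT in either direction, and 0% of the 18688 entries with a mean above 0 did (limma, Benjamini-Hochberg). At an unadjusted p under 0.05 8 members were higher and none lower, where 2.69% and 2.97% of entries were. The log2 change over both days was 1.55 for Hoxa11 (SE 0.608, adjusted p = 0.867 by limma) and 0.80 for Hoxb4 (SE 0.390, adjusted p = 0.867 by limma). Only cluster A and B genes among the 13 rest on more than 10 estimated reads in AP3 ESCs, and Hoxc6 and Hoxc10 had at most 4 reads in any library.

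The library labelled KD was set against the same WT libraries, so its ratios and those of AP3 share their denominators. At D0 9 members were over 1.5-fold higher and 12 lower, where 8.96% and 10.7% of all entries and 21.1% and 24.7% of low entries were, and the median log2 change was -0.04. Clusters B and D were the low ones. Cluster B was at 4.10 RPKM against 5.48 RPKM in WT, a read ratio of 0.783 (0.636 to 0.962), with 5 of 10 genes lower and 1 higher. Cluster D was at 1.19 RPKM against 2.22 RPKM in WT, a read ratio of 0.563 (0.384 to 0.818), with 4 of 9 genes lower and 2 higher. Within cluster D Hoxd9 stood at 0.104 RPKM in the library labelled KD and 0.536 RPKM in WT, a ratio of 0.194 (0.0470 to 0.565), and Hoxd8 had a ratio of 0.381 (0.151 to 0.953). Hoxa6, at 0.147 RPKM in WT, was listed at 0. Hoxc4, at 0.352 RPKM against 0.0942 RPKM in WT, was the 1 member with an interval wholly above WT, and Hoxd8 and Hoxd9 were the 2 with one wholly below. Such intervals lay above WT in 4.42% and below in 6.89% of low entries, and in 12% and 16.3% of all entries with a length. Hoxa2, at 0.250 RPKM against 0.0905 RPKM, and Hoxb1, at 0.0655 RPKM and listed at 0 in WT, were next among the increases, on at most 8 estimated reads.

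At D3 12 members were over 1.5-fold higher in the library labelled KD than in WT and 11 lower, where 9.41% and 11.3% of all entries and 21.9% and 25.7% of low entries were. The median log2 change was 0.00. The 8 anterior genes summed to 1.22 RPKM against 2.00 RPKM in WT, a read ratio of 0.640 (0.459 to 0.890), and 5 of them were lower and 1 higher. The 16 posterior genes summed to 4.55 RPKM against 3.08 RPKM, a read ratio of 1.54 (1.25 to 1.91), but 5 were higher and 4 lower, with a median log2 change of 0.02. The posterior difference lay in Hoxa10 and Hoxa11, without which the other 14 genes summed to 2.83 RPKM against 2.71 RPKM. Their ratios to WT were 3.18 (1.72 to 6.82) and 7.65 (3.23 to 18.4). Of the anterior genes Hoxa2 and Hoxb2 were listed at 0 in the library labelled KD and at 0.209 and 0.207 RPKM in WT, and Hoxa3 was at 0.125 RPKM against 0.359 RPKM. Hoxa4, a central gene, was also listed at 0, against 0.141 RPKM. Intervals lay wholly above WT for Hoxa5, Hoxa10 and Hoxa11 and wholly below for Hoxa2, Hoxa3 and Hoxb2, where 6.24% and 9.91% of low entries and 14.8% and 18.8% of all entries with a length did. Over both days the additive fit passed no member at an adjusted p of 0.05 between the library labelled KD and WT, as was so of all entries. At an unadjusted p under 0.05 none was higher and 2 were lower, where 1.04% and 2.0% of entries were.

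Set directly against the library labelled KD, AP3 ESCs had 25 members over 1.5-fold higher and 3 lower, where 13.5% of all entries lay in each direction and 24.1% and 29.4% of low entries did. The median log2 change was 1.09. The intervals of 15 members (10 with the own peak depths) lay wholly above the library labelled KD and none lay below, where 11.2% and 10.9% of low entries and 22.5% and 19.0% of all entries with a length did. They included Hoxb4, at a ratio of 2.86 (1.76 to 4.63), and Hoxd9, at 7.06 (2.596 to 27.4), and Hoxa6, at 0.346 RPKM in AP3 and listed at 0 in the library labelled KD. In EBs 20 members were higher in AP3 and 11 lower, where 11.6% and 11.1% of all entries and 25% and 24.2% of low entries were, and the median log2 change was 0.78. Intervals lay wholly above for 9 members and wholly below for Hoxa11 and Hoxd8, where 8.73% and 8.92% of low entries and 19.8% and 16.8% of all entries with a length did. The largest increases on log2(RPKM + 0.1) were of Hoxa2, at 0.466 RPKM in AP3 and listed at 0 in the library labelled KD, of Hoxa3, at 0.667 against 0.125 RPKM with a ratio of 5.33 (2.25 to 12.4), and of Hoxb2, at 0.230 RPKM and listed at 0. The anterior sum was 2.72 times higher in AP3 than in the library labelled KD, and the posterior sum 0.733 times as high. Over both days no member and no other entry passed an adjusted p of 0.05 between these lines in the additive fit, and at an unadjusted p under 0.05 8 members were higher in AP3 and none lower, where 4.35% and 2.26% of entries were. In AP3 EBs Hoxa11 was at 0.447 times its level in the library labelled KD (0.268 to 0.746) and Hoxd8 at 0.214 times (0.0530 to 0.624). In ESCs both were higher in AP3, at ratios of 3.70 and 2.51. Hoxb13, a gene of the prostate and tail, was at 0.0272 RPKM in AP3 EBs and 0.193 RPKM in the library labelled KD, on at most 6 estimated reads.

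**Figure D4:**
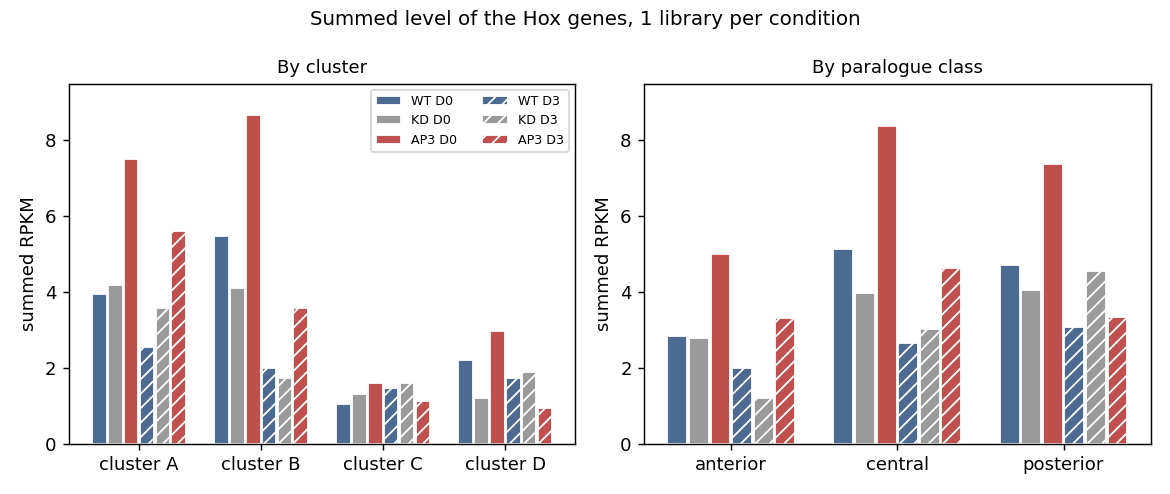
Summed RPKM of the Hox genes by cluster (left) and by paralogue class (right; anterior 1 to 3, central 4 to 8, posterior 9 to 13), with 1 bar per library, plain for ESCs and hatched for EBs. The AP3 D0 bar is the tallest in clusters A, B and D and in all 3 classes, in cluster C it is level with the KD D3 bar at 1.60 RPKM, cluster B is lower in EBs than in ESCs of the same line in all 3 lines, and in cluster D the AP3 D3 bar, at 0.947 RPKM, is the shortest.

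Between D0 and D3 more Hox genes were called lower than higher in each line, as was also so of low entries at large. In WT 7 members were over 1.5-fold higher at D3 and 16 lower, where 14.1% and 16.5% of all entries and 24.4% and 33.8% of low entries were. In the library labelled KD 10 were higher and 15 lower, where 14.0% and 16.2% of all entries and 24.0% and 34.0% of low entries were. In AP3 4 were higher and 25 lower, where 14.7% and 16.3% of all entries and 26.5% and 30.6% of low entries were. With 0.1 RPKM added none was higher and 19 were lower in AP3, where 10.7% and 12.4% of all entries were. Intervals lay wholly above D0 for 1 member in WT and wholly below for 5, where 10.2% and 14.0% of low entries and 22.3% and 19.7% of all entries with a length did. In the library labelled KD they did so for 3 and 8 members, where 10.2% and 15.5% of low entries and 22.4% and 20% of entries with a length did. In AP3 they did so for none and 14, where 11.9% and 15.4% of low entries and 24.6% and 21.6% of entries with a length did. The members' shares called lower were 41.0% in WT, 38.5% in the library labelled KD and 64.1% in AP3, so those of WT and the library labelled KD were near those of low entries. The median log2 changes were -0.14, -0.30 and -0.91. With the 3 lines as replicates the additive fit passed 2 members as lower at D3, Hoxb8 and Hoxb9, and none as higher, where 3.11% of entries were lower and 2.08% higher at an adjusted p of 0.05. At an unadjusted p under 0.05 7 members were lower and none higher, where 11.7% and 11.5% of entries were. These comparisons use the same libraries as those between lines, so the steeper median in AP3 and its higher levels at D0 are not separate measurements.

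Cluster B had the largest decrease in RPKM of the 4 clusters in each line. Its sum went from 5.48 to 1.99 RPKM in WT, from 4.10 to 1.74 RPKM in the library labelled KD and from 8.67 to 3.58 RPKM in AP3, and the read ratios were 0.344 (0.263 to 0.447), 0.397 (0.303 to 0.517) and 0.378 (0.313 to 0.454). Hoxb9 fell to 0.182, 0.141 and 0.219 times its D0 level in WT, the library labelled KD and AP3, with intervals of 0.106 to 0.303, 0.0780 to 0.244 and 0.143 to 0.313. Hoxb8 fell to 0.204, 0.319 and 0.180 times. Over the 3 lines the log2 change on log2(RPKM + 0.1) was -2.22 for Hoxb9 (SE 0.251, adjusted p = 0.012 by limma) and -1.66 for Hoxb8 (SE 0.295, adjusted p = 0.0363 by limma), both lower in 3 of 3 lines. Neither passed when any 1 of the 6 libraries was left out, nor did any entry of the table, since 1 residual degree of freedom then remained. Hoxb8 did not pass with 1 RPKM added. Hoxb4 did not share this decrease in WT and the library labelled KD, where its ratios were 0.775 (0.415 to 1.37) and 1.298 (0.735 to 2.24), and fell in AP3 to 0.524 (0.352 to 0.779). Cluster C behaved otherwise: its sum at D3 was 1.4 times that at D0 in WT, 1.22 times in the library labelled KD and 0.712 times in AP3. Its main gene, Hoxc13, a regulator of hair and nail, was the most even of the 7 more abundant members, at 0.637, 0.710 and 0.898 RPKM at D0 and 0.919, 1.09 and 0.729 RPKM at D3 in the order WT, KD, AP3. Cluster D fell to 0.318 times in AP3, was 1.57 times higher in the library labelled KD, and was at 0.777 times in WT. The anterior sum at D3 was at 0.704, 0.437 and 0.662 times its D0 level in WT, the library labelled KD and AP3, so no line had a higher sum of anterior genes in EBs than in ESCs.

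A few genes went the other way between the days. Hoxa11 in the library labelled KD was 4.52 times its D0 level (2.37 to 10.2), where it was 0.894 times in WT and 0.545 times in AP3, and Hoxa10 was at 0.278 and 0.778 RPKM. Hoxd9 in the library labelled KD was 4.87 times its D0 level (1.71 to 19.5), which brought it level with WT at D3. In WT Hoxc4 was 3.64 times its D0 level, and Hoxc9 and Hoxd11, listed at 0 in ESCs, were at 0.127 and 0.0863 RPKM in EBs on at most 4 estimated reads. In AP3 the largest increases on log2(RPKM + 0.1) were of Hoxa13, Hoxb1 and Hoxa2, the last at 0.293 and 0.466 RPKM, and none of the 3 had an interval wholly above D0. Hoxa4 in AP3 fell from 0.509 to 0.0727 RPKM.

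The members not described above, Hoxa7, Hoxb6, Hoxb7, Hoxc8, Hoxd10 and Hoxd12, were under 1 RPKM in each library. Hoxa7 was the most even of them, at 0.372 to 0.715 RPKM, and did not pass 1.5-fold between AP3 and WT on either day. Hoxb7 was highest in AP3 ESCs, at 0.929 RPKM, and Hoxb6 at 0.460 RPKM was too. Hoxc8, Hoxd10 and Hoxd12 reached at most 0.0972, 0.119 and 0.0379 RPKM.

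Markers of fibroblasts moved in the same order as the Hox genes at D0. ESCs had been kept on irradiated embryonic fibroblasts before the last passage, and fibroblasts express Hox genes, so 15 fibroblast markers found in the table were summed. Their sum was 53.1 RPKM in WT ESCs, 41.5 RPKM in the library labelled KD and 83.1 RPKM in AP3 ESCs, against 21.3, 13.6 and 18.6 RPKM in EBs. Of the 15 markers 9 were over 1.5-fold higher in AP3 than in WT ESCs and 1 lower, and at D3 8 were higher and 1 lower. The collagen gene Col1a2 was at 12.9, 11.8 and 22.5 RPKM at D0 and stood at 1.298, 0.591 and 2.36 RPKM at D3, and the mesenchymal factor Prrx1 at 4.86, 2.89 and 8.26 RPKM and 0.691, 0.217 and 1.07 RPKM. Dcn, a matrix proteoglycan gene, stood in ESCs at 0.321, 0.178 and 2.46 RPKM, with EB values of 0.381, 0.103 and 0.414 RPKM. Lum was listed at 0 in WT ESCs and stood at 0.0352 RPKM in the library labelled KD and 0.333 RPKM in AP3, while Postn was at 0.112 RPKM in WT, 0.0169 RPKM in the library labelled KD and listed at 0 in AP3. Hox sums and fibroblast marker sums thus had the same rank order at D0, and both were lower at D3 in every line, but at D3 their orders differed, with the library labelled KD lowest in markers and WT lowest in Hox genes. The D3 marker sums leaned on Thy1, which went to 9.19, 5.48 and 3.56 RPKM from 1.74, 2.42 and 1.74 RPKM at D0. Without it, an alternative chosen after seeing the data, the other 14 summed to 12.1 RPKM in WT, 8.11 RPKM in the library labelled KD and 15.02 RPKM in AP3 at D3, so AP3 was then highest in markers as in Hox genes. The part of fibroblasts in the Hox values was not tested. In bulk RNA, fewer cells of a type and less RNA per cell cannot be told apart.

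**Figure D5:**
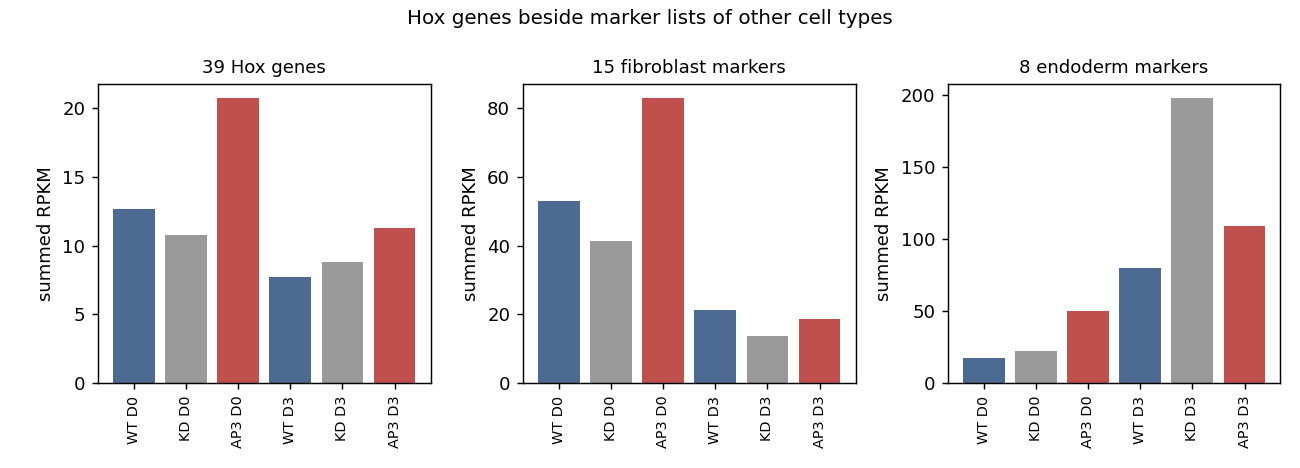
Summed RPKM in each library for the 39 Hox genes (left), 15 fibroblast markers (middle) and 8 endoderm markers (right). Hox genes and fibroblast markers are both highest in AP3 ESCs, at 20.8 and 83.1 RPKM, and lower in EBs, and endoderm markers are highest in the library labelled KD at D3, at 198 RPKM.

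The 8 endoderm markers summed to 17.3, 22.6 and 50.0 RPKM at D0 and 80.2, 198 and 109 RPKM at D3, so at D0 they too had AP3 on top, with 6 of 8 over 1.5-fold higher than in WT. Posterior mesoderm is the tissue in which Hox genes first come on in the embryo. Its 9 markers were low but had the same order as the Hox genes at D0, with sums of 5.18 RPKM in WT, 4.07 RPKM in the library labelled KD and 5.82 RPKM in AP3, and they were lower at D3 in each line, at 2.77, 2.45 and 1.87 RPKM. Of these 9 markers 4 were over 1.5-fold higher in AP3 than in WT ESCs and 1 lower, and at D3 2 were higher and 4 lower. The largest part of the D0 sums was Cdx1, and Msgn1, which defines presomitic mesoderm, was listed at 0 in all 6 libraries. T, the defining gene of the primitive streak, was between 0.264 and 0.660 RPKM. Of the pluripotency markers 9 of 9 found were at 1 RPKM or more in every library, and Pou5f1 lay between 358 and 540 RPKM. In AP3 ESCs 4 of the 9 were over 1.5-fold lower than in WT and none was higher: Klf2 went from 123 RPKM in WT to 41.1 RPKM in AP3, and the log2 changes of Klf2, Dppa3, Klf4 and Sox2 were -1.59, -1.19, -0.88 and -0.80. Epiblast and primitive streak markers summed to 44.6 to 61.1 RPKM in ESCs and 121 to 147 RPKM in EBs, neural markers to 20.5 to 32.7 RPKM over all libraries, and markers of endothelium and blood to 9.46 to 15.8 RPKM. That last sum was carried by Pecam1, at 6.77 to 14.2 RPKM. At D3 4 of the 7 were over 1.5-fold higher in AP3 than in WT and none lower, with a median log2 change of 2.28. Kdr, a receptor of endothelial progenitors, was at 0.142 RPKM in WT EBs and 1.36 RPKM in AP3 EBs, Cdh5 at 0.248 and 1.60 RPKM, and the blood factors Tal1 and Gata1 at 0.0655 and 0.6001 RPKM and at 0.0783 and 0.385 RPKM. How far these cell types bear on the Hox values was not tested.

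Genes that act with or on the Hox clusters were taken from lists. Of 9 TALE homeodomain cofactors, which bind DNA together with Hox proteins, 1 was over 1.5-fold higher in AP3 than in WT ESCs and none lower, and in EBs none was higher and 2 were lower. The most abundant, Pbx2, was at 18.9, 21.5 and 18.8 RPKM at D0 and 27.7, 18.4 and 23.3 RPKM at D3, and the 1 higher was Pknox2, at 0.489 RPKM in WT and 1.51 RPKM in AP3. Meis1 was at 2.28, 1.73 and 2.61 RPKM in ESCs and went to 0.892, 0.634 and 1.06 RPKM in EBs, lower at D3 in each line as cluster B was. Of 23 Polycomb and trithorax genes found, which keep the clusters silent or active, none passed 1.5-fold between AP3 and WT on either day. Ezh2, the histone methyltransferase of Polycomb complex PRC2, was at 85.9, 80.0 and 95.9 RPKM at D0 and 68.2, 65.6 and 90.1 RPKM at D3.

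Of 13 related homeobox genes outside the clusters, among them the Cdx genes that act upstream, 6 were over 1.5-fold higher in AP3 than in WT ESCs and 1 lower, with a median log2 change of 0.22. In EBs 3 were higher and 5 lower. Cdx1, which activates Hox genes in the posterior embryo, was at 2.79, 2.02 and 3.24 RPKM in ESCs and stood at 0.540, 0.225 and 0.249 RPKM in EBs. Cdx2 was at most at 0.515 RPKM, in AP3 ESCs, and listed at 0 in AP3 EBs. Of 17 genes of retinoic acid signaling, the best known inducer of 3′ Hox genes, 2 were over 1.5-fold higher and 2 lower in AP3 ESCs than in WT, and 1 higher and 2 lower in EBs. Cyp26a1, which degrades retinoic acid and is induced by it, was at 0.287, 0.857 and 0.261 RPKM at D0 and 4.06, 14.0 and 3.82 RPKM at D3, so it was highest in the EB library labelled KD, in which Hoxa2 and Hoxb2 were listed at 0. Rarb, another target of the receptor, was at most at 0.780 RPKM, in WT ESCs.

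Of 19 genes found beside or inside the clusters, 3 were over 1.5-fold higher in AP3 than in WT ESCs and 2 lower. Skap2, an adaptor protein gene that neighbours the anterior end of cluster A, was at 48.1, 45.1 and 81.2 RPKM in ESCs and stood at 25.9, 23.2 and 46.9 RPKM in EBs. It was therefore higher in AP3 on both days, as the cluster A sum was, and lower at D3 than at D0 in each line. Hibadh, on the other side of cluster A, was at 33.8, 28.1 and 43.5 RPKM in ESCs and stood at 28.7, 26.6 and 33.0 RPKM in EBs, within 1.5-fold of WT on both days. Evx1, a homeobox gene at the posterior end of the same cluster, was at most at 0.0696 RPKM, and Evx2 beside cluster D was listed at 0 in all libraries. Mtx2 and Lnp, on the sides of cluster D, were within 1.5-fold of WT in AP3 on both days, at 21.7 and 7.14 RPKM at D0 and 26.2 and 5.83 RPKM at D3.

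Promoters of 22 members were found in a RefSeq table of GRCm38.p6, as 300 bases around the start. Their median GC content was 56.8%, against 52.7% for 27025 genes, and 10 of 22 had an observed to expected CpG ratio over 0.6, against 36.4% of all genes in the table. The letters TATAAA, searched on both strands, occurred in 3 of the 22, Hoxb8, Hoxd4 and Hoxd13, and in 14.2% of all promoters in the table.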

How the data were processed

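RNA-Seq was available for 6 libraries, 1 for each line and day. The authors prepared oligo(dT)-selected RNA with the TruSeq kit. Single-end reads were mapped to mm9 by TopHat, which ran Bowtie 0.12.7, with at most 2 mismatches and 20 locations per read, and Cufflinks 1.3.0 gave the RPKM of each gene that the authors deposited (versions from the submitters' processing notes). No counts were used here. Log2 ratios between lines in the deposited table are the authors' own comparisons and were not used.

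Ratios were computed on log2(RPKM + 0.001), a gene being called past 1.5-fold. Library depth came from the size of the smallest steps in RPKM, over 3615 genes with 1 GENCODE transcript longer than 1500 bases, and reads per value from the longest transcript inside the deposited locus, for 20662 entries and 39 members. The depth estimate was tested on simulated counts, drawn for every library from the WT D0 levels with set changes in AP3 D0. Such data cannot show whether the joint or the own peak estimate holds for the real AP3 D0 library. Intervals are exact Poisson for a level and exact conditional binomial (Clopper-Pearson) for a ratio, at 95%, for counting error only. Pseudocounts of 0.1 and 1, minimums of 1 RPKM or 10 estimated reads, centring and a 2-fold limit were tried as alternatives.

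Members at 1 RPKM or more in any library are named with their values, except that some items are not reported here. Also named are Hoxb4 and Hoxa11, the highest member of each cluster, and the 3 largest increases and decreases of each comparison on log2(RPKM + 0.1). The members and lists were chosen with earlier results of these data known. An additive fit of line and day over the 6 libraries was made with limma 3.58.1 in R 4.3.3 on log2(RPKM + 0.1), over 18688 entries with a mean above 0, with Benjamini-Hochberg adjustment, and tested on simulated data. It takes the lines as replicates for day and the days as replicates for line. Analyses used Python 3.11.15, pandas 2.3.3, SciPy 1.17.1 and Biopython 1.88. ChIP-Seq, Nanostring and other experiments of the study were not analysed here.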

Additional observations from a re-analysis of the deposited data

Results flagged for a closer look

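Hoxc4 passed 1.5-fold in opposite directions on the 2 days. Its log2 change in AP3 against WT was 1.59 at D0 and -1.95 at D3, a difference of -3.54 between the days. The same 4 values, read within each line, give a log2 change from D0 to D3 of 1.85 in WT and -1.69 in AP3, again a difference of -3.54. It rests on an estimated 3 and 16 reads in WT and AP3 at D0 and 13 and 4 at D3. Hoxd8 passed it in opposite directions between the library labelled KD and WT, with a log2 change of -1.39 at D0 and 0.72 at D3, a difference of 2.11. From D0 to D3 its log2 change was -0.97 in WT and 1.14 in the library labelled KD, a difference of 2.11.

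Between AP3 and the library labelled KD 4 members passed 1.5-fold in opposite directions on the 2 days. The log2 change of AP3 against KD was 1.25 at D0 and -0.64 at D3 for Hoxa10, a difference of -1.89. It was 1.88 and -1.16 for Hoxa11 (-3.04), 1.32 and -2.22 for Hoxd8 (-3.54), and 2.81 and -1.02 for Hoxd9 (-3.83). Read within each line, the change from D0 to D3 was 2.17 in the library labelled KD and -0.87 in AP3 for Hoxa11, a difference of -3.04, while for Hoxd8 it was 1.14 and -2.40 (-3.54) and for Hoxd9 2.27 and -1.55 (-3.82). Hoxd9 rests on an estimated 4 reads in the library labelled KD at D0 and 43 in AP3, and Hoxd8 on 8 and 29.

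Among members with at least 10 estimated reads in 1 library of each comparison, these were the opposite calls found when the lines were compared in pairs on both days and the days in pairs of lines. The differences were not tested, since each condition has 1 library.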

How the results depend on the processing

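Counts are given here in the order AP3 against WT at D0 and D3, KD against WT at D0 and D3, AP3 against KD at D0 and D3, and D3 against D0 in WT, KD and AP3. Of the 39 members 28, 32, 21, 23, 28, 31, 23, 25 and 29 passed 1.5-fold in either direction, and the count depends on how low values are treated. With a pseudocount of 0.1 they were 22, 18, 12, 12, 20, 21, 19, 17 and 19, and with a pseudocount of 1 they were 1, 1, 0, 1, 3, 1, 2, 2 and 3. Members of at least 1 RPKM in 1 of the 2 libraries gave 3, 2, 0, 0, 4, 2, 2, 3 and 4, and members of at least 10 estimated reads gave 15, 15, 7, 5, 17, 15, 9, 11 and 18, since fewer members then enter. At a 2-fold limit they were 23, 20, 17, 19, 24, 24, 19, 22 and 21. With at least 10 estimated reads AP3 against WT had 15 members higher and none lower at D0, where 10.2% and 9.31% of all such entries were, and 12 higher and 3 lower at D3, where 6.68% and 9.08% were.

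The median log2 changes of the members, in the same order 0.92, 0.62, -0.04, 0, 1.09, 0.78, -0.14, -0.3 and -0.91, became 0.53, 0.3, -0.02, 0, 0.5, 0.2, -0.09, -0.18 and -0.54 with a pseudocount of 0.1, 0.16, 0.05, 0, 0, 0.16, 0.03, -0.03, -0.04 and -0.14 with a pseudocount of 1, and 1.02, 2.19, -0.1, 0.24, 1.45, 0.82, -1.7, -0.87 and -0.77 with the minimum of 1 RPKM. Centring on the median ratio moved no count by more than 1.5 times and no median by more than 0.05. Leaving the highest member out of a cluster sum, an alternative chosen after seeing the data, left the ratio of AP3 to WT between 1.42 and 2.25 at D0, and at 2.38, 1.88, 0.738 and 0.571 for clusters A to D at D3. With each library's depth taken from its own peak, also chosen after seeing the data, members with an interval wholly to 1 side numbered 7 in place of 9 in AP3 above WT and 10 in place of 15 in AP3 above KD at D0, and 13 in place of 14 below D0 in AP3 EBs, with none on the other side. The additive fit of line and day, also chosen after seeing the data, pairs D0 with D3 within each line. It passed 2 members for day, 2 with 0.001 RPKM added and 1 with 1 RPKM added, and 0 without any 1 of the 6 libraries. For the 3 pairs of lines it passed 0 members under each of these settings. The ratios of single pairs of libraries cannot be recomputed with a library left out, and neither the spread between cultures nor the depth of the AP3 D0 library can be separated from the lines.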
